A study of Homo sapiens with 10 samples.

Results

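The insulin-like growth factor (IGF) system was followed through 10 genes: the ligand IGF2, the receptors IGF1R and INSR, and the binding proteins IGFBP1 to IGFBP7. They were chosen by name, with earlier results of these data known, as 10 of the 28265 gene symbols counted. All 10 had enough counts to be tested. The RNA came from thyroid organoids, from which NKX2-1GFP+ cells were sorted and sequenced in bulk. The organoids are 3-dimensional cultures grown in Matrigel from a human embryonic stem cell line (ESIBIe003-A-6 in the labels). There were 2 libraries at each of days 16, 23, 31, 38 and 45 of differentiation. All 5 groups came from this one line, in which GFP reports one allele of NKX2-1 and doxycycline switches on transgenes for NKX2-1 and PAX8, and all had been through activin A and a doxycycline pulse that ended before day 16.

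The medium changed along with the day. By the study's methods, the cells were in basal medium up to day 16, then received 8-br-cAMP, a cell-permeable cAMP analogue, and from day 30 recombinant TSH with dexamethasone, a glucocorticoid. SB431542, which blocks TGFβ receptor kinases, was added about a week before the last time point. The labels name cAMP for days 16, 23 and 31, TSH and DEX for day 38, and TSH and SB for day 45, so that they differ from the methods for days 16 and 31 and leave out dexamethasone at day 45. By the methods the steps to days 23 and 31, and day 45 against day 16, cross a change of medium. Days 31 and 38 both follow the start of TSH with dexamethasone. The study's text places the start of SB431542 either shortly before day 38 or at day 38. By the methods it is therefore unclear whether the step to day 38 or the step to day 45 crosses that change. By the labels days 16, 23 and 31 share their medium, and SB is named only for day 45. Where the medium changed, time and medium cannot be told apart. Cells kept on cAMP at the late days were not analysed here. By the methods each library was made from sorted cells pooled over several wells, and the 2 libraries of a day were biological replicates of the same line, so the p-values describe the spread between cultures of 1 line. In such bulk samples, fewer cells of a type and less RNA per cell cannot be told apart.

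IGF1 and IGF2 are small secreted growth factors related to insulin. Both signal through the receptor tyrosine kinase IGF1R, and IGF2 also binds a form of the insulin receptor INSR, while IGF2R takes IGF2 up for degradation without a kinase of its own. The secreted IGFBPs hold the ligands outside the cell, and proteases such as PAPPA and HTRA1 cleave them and so free the ligand. In thyroid follicular cells, insulin and IGFs are known to act together with TSH on growth and differentiated function.

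The libraries held 7247268 to 10333933 counts. The floor of a library, set at 3 counts, was 0.307 to 0.436 CPM, the count relative to the library total after scaling with TMM factors. Changes between days are log2 fold changes with their standard error (SE) from edgeR's quasi-likelihood test, and a gene is said to rise or fall only where its p, adjusted over all 21014 genes tested, was under 0.05. Levels are means ± SD of the 2 libraries of a day.

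No unsorted or GFP-negative library was among the 10 libraries, so the purity of the sort was not tested. Reads of NKX2-1 and PAX8 were not split between the genes and their transgenes. The sorted cells were described by 7 thyroid genes. Their summed level was 1851 and 1455 CPM in the day 16 libraries and 9298 and 8810 CPM at day 45, with FOXE1 the most abundant at day 16 and TG, the thyroglobulin precursor of thyroid hormone, at days 38 and 45. That difference lies in TG, since the other 6 genes summed to 1840 and 1444 CPM at day 16 and to 1334 and 1285 CPM at day 45. Between these days TG, TSHR and HHEX rose, while log2 levels of FOXE1 fell by 1.86 (edgeR adjusted p = 6.09e-13), of NKX2-1 by 0.48 (0.0202) and of PAX8 by 0.33 (0.0453). NKX2-1, the gene behind the sort, had 90.0 and 83.9 CPM at day 16, 129 to 157 CPM in the 6 libraries of days 23, 31 and 38, and 58.1 and 66.7 CPM at day 45, its lowest values. Its log2 level fell from day 38 to day 45 by 1.20 (edgeR adjusted p = 6.3e-07). The part of this in the changes at day 45 was not tested. TG went from 84 and 95 counts at day 16 up to 54854 and 68901 at day 45.

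Over any day, 9 of the 10 IGF system genes changed, where 36.3% of all genes tested did. IGFBP6 was the exception, with an edgeR adjusted p of 0.103. The 10 genes were chosen with earlier results of these data known, and their difference from all genes was not tested. From day 16 to day 23, 6 rose and 1 fell, beside 5.60% and 5.33% of all genes (10.9% in either direction). From day 23 to day 31, 2 rose and 0 fell, beside 1.58% and 0.666% (2.25%); edgeR gave an unadjusted p under 0.05 for 4 that were higher and 1 that was lower, and DESeq2 called 2 and 1. From day 31 to day 38, 5 rose and 3 fell, beside 8.80% and 6.23% (15.0%). From day 38 to day 45, 2 rose and 3 fell, beside 4.85% and 6.35% (11.2%). Between the first and the last day 7 rose and 0 fell, beside 12.9% and 11.7% (24.6%), and none was lower at an unadjusted edgeR or DESeq2 p under 0.05. The median log2 fold change of the 10 genes was 0.60, 0.32, 0.56 and 0.28 over the successive steps and 1.90 from day 16 to day 45, while that of all genes tested was between -0.02 and 0.00. From day 31 to day 38, dropping the TMM factors turned the split of all genes called from 1850 higher and 1310 lower to 1182 higher and 2368 lower and moved the median of all genes to -0.20.

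**Figure D1:**
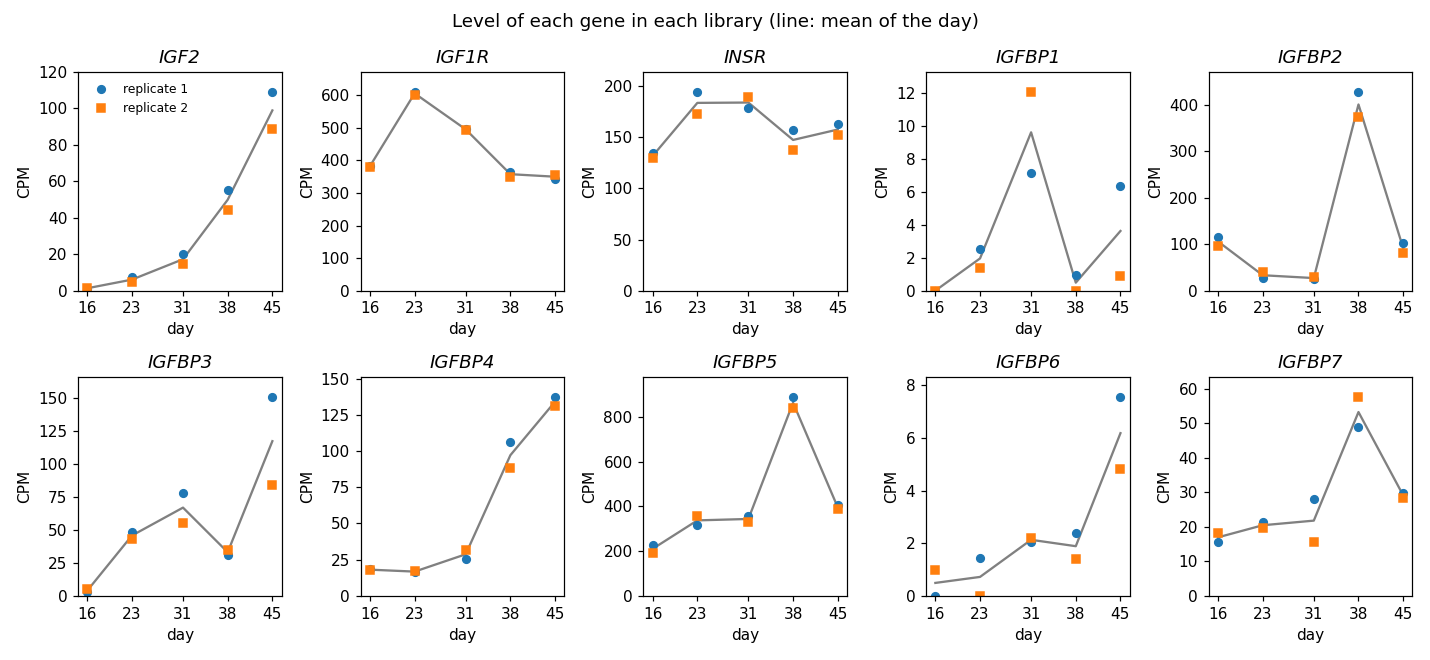
Level of each of the 10 genes in CPM (vertical axis, linear, starting at 0) against day of differentiation. Circles and squares are the 2 libraries of a day and the line joins the daily means. IGF2 is higher at each later day, whereas IGFBP2, IGFBP5 and IGFBP7 peak at day 38 and IGF1R at day 23.

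IGF2, the ligand, rose at every step. It had 8 and 13 counts at day 16, 67 and 41 (day 23), 196 and 124 (day 31), 514 and 380 (day 38), and 752 and 812 (day 45). No library of a later day was at or below one of an earlier day when scaled to CPM, from a mean of 1.31 ± 0.415 CPM at day 16 to 98.9 ± 14.5 CPM at day 45, a 75.7-fold ratio of the means. The steps were 2.20 (SE 0.39), 1.51 (0.29), 1.53 (0.27) and 0.99 (0.25) on the log2 scale, with edgeR adjusted p of 0.000121, 0.00157, 5.32e-05 and 0.00743. From day 16 to day 45 the change was 6.22 (SE 0.36, edgeR adjusted p = 8.54e-16). The step to day 31 lost its call without the second day 23 library (adjusted p = 0.0892) or the first day 31 library (0.089), and the step to day 45 without the second day 38 library (0.188) or the first day 45 library (0.135), all by edgeR. Fitted on only the 4 libraries compared, the first step (2.20, edgeR adjusted p = 0.104) and the step to day 31 (1.51, edgeR adjusted p = 0.0969) kept their size and were not called.

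IGF2 lies on the minus strand at chr11:2129112-2158391 (GRCh38). Of its 7146 exon bases, 1460 are shared with the read-through gene INS-IGF2 on the same strand and 333 with the antisense gene IGF2-AS, and 2711 with another same-strand gene that is not among the counted symbols. How reads in shared bases were assigned is not stated, so the IGF2 values are uncertain to that extent. INS-IGF2 itself had at most 2 counts and IGF2-AS at most 17 in any library, and INS, the insulin gene, was at 0 in all 10.

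The imprinted noncoding RNA H19, 124559 bases from IGF2 on the same strand, also rose. It had 149 and 142 counts at day 16, 1289 and 1398 (day 23), 1970 and 2733 (day 31), 3508 and 2297 (day 38), and 3020 and 2620 (day 45). Its largest step was the first, at 3.06 (SE 0.21, edgeR adjusted p = 4.36e-13). The step to day 31 was 0.78 (SE 0.18, edgeR adjusted p = 0.011), a call that DESeq2 did not make (0.205) and that was lost without either day 23 library (0.192 and 0.0754). It was 0.40 without the second day 31 library (edgeR adjusted p = 0.46). The later steps of 0.32 and 0.16 did not pass, so that IGF2 went on rising after day 31 over steps in which H19 did not pass the test; the difference between the genes was not tested.

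IGF1, the other ligand, had its highest daily mean at day 38, at 16.8 ± 0.534 CPM. Its libraries held 6 and 49 counts at day 16, 36 and 15 (day 23), 107 and 66 (day 31), 159 and 141 (day 38), and 53 and 82 (day 45). The day 16 pair differed by more than the 2 day 38 libraries did. IGF1 changed over any day (edgeR adjusted p = 0.00304) and in no single step, the nearest being the step to day 31 at 1.70 (SE 0.61, edgeR adjusted p = 0.176). Its exons overlap 6693 bases of an antisense gene that is not among the counted symbols.

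The receptors moved little beside the ligand. IGF1R, at chr15:98648539-98964530 on the plus strand, had 384 and 381 CPM at day 16, 611 and 601 (day 23), 498 and 493 (day 31), 365 and 350 (day 38), and 344 and 356 (day 45). Both day 23 libraries were above all others, both day 31 libraries came next, and days 38 and 45 overlapped below day 16. IGF1R rose to day 23 by 0.66 (SE 0.12, edgeR adjusted p = 9.23e-05) and fell to day 38 by 0.47 on the log2 scale (SE 0.11, edgeR adjusted p = 0.00351). That fall lost its call without the second day 38 library (edgeR adjusted p = 0.0655). The step from day 23 to day 31 was -0.29 (SE 0.11, edgeR adjusted p = 0.256), which DESeq2 called (0.0241). Days 45 and 16 differed by -0.13 (SE 0.12, edgeR adjusted p = 0.472).

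INSR, at chr19:7112255-7294414 on the minus strand, had 134 and 129 CPM at day 16, 195 and 173 (day 23), 179 and 189 (day 31), 157 and 137 (day 38), and 163 and 152 (day 45). Day 16 lay below every other library, and days 23 and 31 overlapped above the rest. The rise to day 23 of 0.48 (SE 0.14, edgeR adjusted p = 0.0196) was its only call between neighbouring days, and it was lost without the second day 16 library (adjusted p = 0.0662) or the first day 23 library (0.205). From day 31 to day 38 the value was -0.32 (SE 0.14, edgeR adjusted p = 0.128), which DESeq2 called (0.0489), as did edgeR without the TMM factors, at -0.54 (adjusted p = 0.00486). The uptake receptor IGF2R had a daily mean of 331 ± 4.12 CPM at day 23 and 227 ± 5.61 CPM at day 38. It fell from day 31 to day 38 by 0.38 on the log2 scale (SE 0.12, edgeR adjusted p = 0.0323), a call lost on leaving out any single library of those days (adjusted p from 0.07 to 0.22), and it was -0.60 without the TMM factors (0.000497).

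The binding proteins moved in several patterns. IGFBP2, IGFBP5 and IGFBP7 peaked at day 38, IGFBP4 rose to day 38 and was at its highest at day 45, IGFBP3 and IGFBP1 rose early and were lower at day 38, and IGFBP6 stayed at low counts throughout.

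IGFBP2 made the largest called step between neighbouring days among IGFBP2 to IGFBP7. It is a secreted protein with an RGD integrin-binding sequence and lies on the plus strand at chr2:216632828-216664436. Its libraries held 915 and 777 counts at day 16, 242 and 346 (day 23), 236 and 258 (day 31), 3967 and 3209 (day 38), and 705 and 745 (day 45). Both day 38 libraries stood far above all others, days 23 and 31 overlapped at the bottom, and days 16 and 45 overlapped between them. IGFBP2 fell to day 23 by 1.67 on the log2 scale (SE 0.18, edgeR adjusted p = 1.43e-08). It then rose 14.8-fold from a mean of 27.1 ± 4.15 CPM at day 31 to 401 ± 38.8 CPM at day 38 (3.89, SE 0.19, edgeR adjusted p = 1.97e-17), and fell by 2.13 to day 45 (SE 0.17, edgeR adjusted p = 4.47e-11). Days 45 and 16 differed by -0.21 (SE 0.17, edgeR adjusted p = 0.419).

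IGFBP5, which binds extracellular matrix as well as IGFs, lies tail to tail with IGFBP2 on the minus strand at chr2:216672105-216695549, with 7668 bases between the genes. It had 228 and 192 CPM at day 16, 318 and 357 (day 23), 356 and 331 (day 31), 889 and 838 (day 38), and 404 and 387 (day 45). The day 38 libraries were again above all others, and day 16 was below all others. IGFBP5 rose to day 23 by 0.68 (SE 0.12, edgeR adjusted p = 0.000154), where its neighbour IGFBP2 fell. Both rose at day 38, IGFBP5 by 1.33 (SE 0.12, edgeR adjusted p = 2.72e-10), and both fell at day 45, IGFBP5 by 1.13 (SE 0.12, edgeR adjusted p = 2.29e-08). At day 45 IGFBP5 was still above day 16 by 0.91 (SE 0.12, edgeR adjusted p = 3.9e-07). It shares 487 exon bases with the antisense gene DIRC3-AS1, which had 0 to 56 counts.

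IGFBP7, a binding protein with low affinity for IGFs and a known part of vascular matrix, lies on the minus strand at chr4:57030773-57110385. It had 124 and 148 counts at day 16, 192 and 172 (day 23), 275 and 133 (day 31), 453 and 495 (day 38), and 206 and 260 (day 45). The day 31 libraries differed the most from each other, and both day 38 libraries were above all others. IGFBP7 rose to day 38 by 1.28 (SE 0.28, edgeR adjusted p = 0.000994) and fell to day 45 by 0.87 on the log2 scale (SE 0.28, edgeR adjusted p = 0.0343). Without the second day 31 library the rise was 0.91 (edgeR adjusted p = 0.0601). The fall was lost on leaving out any library of days 38 and 45 (adjusted p from 0.105 to 0.32), with DESeq2 (0.0565), without the TMM factors (0.0534) and with upper-quartile factors (0.054). Days 45 and 16 differed by 0.78 (SE 0.28, edgeR adjusted p = 0.0415), a call lost without any 1 of 6 libraries (adjusted p from 0.0636 to 0.182), without the TMM factors (0.0811) and with only the 4 libraries compared (0.089). IGFBP7 shares 260 exon bases with the opposite-strand gene POLR2B (862 to 1649 counts), so a part of its counts is uncertain.

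IGFBP4, which is cleaved by PAPPA and is known mainly as an inhibitor of IGF action, lies on the plus strand at chr17:40443450-40457725. It had 144 and 146 counts at day 16, 149 and 149 (day 23), 250 and 274 (day 31), 981 and 759 (day 38), and 946 and 1199 (day 45). Replicates were close at days 16, 23 and 45 and further apart at day 31 (25.6 and 31.9 CPM) and day 38 (106 and 88.4 CPM). In CPM each day from 31 on lay above the day before without overlap. IGFBP4 rose to day 31 by 0.77 (SE 0.21, edgeR adjusted p = 0.0336), a call lost without any library of days 23, 31 and 38 or the first of day 45 (adjusted p from 0.051 to 0.269). It rose to day 38 by 1.76 (SE 0.20, edgeR adjusted p = 2.14e-08), while the step to day 45 of 0.46 (SE 0.19) had an edgeR adjusted p of 0.116 (0.49 and 0.0241 with only the 4 libraries compared). Over the whole course it rose 7.40-fold, from 18.1 ± 0.199 to 134 ± 4.52 CPM (2.89, SE 0.21, edgeR adjusted p = 2.46e-13).

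IGFBP3, the main IGF carrier of blood, lies on the minus strand at chr7:45912245-45921874. It had 23 and 41 counts at day 16, 438 and 376 (day 23), 766 and 477 (day 31), 290 and 300 (day 38), and 1039 and 768 (day 45). Both day 38 libraries were below those of days 23, 31 and 45 and above day 16. IGFBP3 rose to day 23 by 3.51 (SE 0.30, edgeR adjusted p = 9.44e-11), fell to day 38 by 1.02 (SE 0.24, edgeR adjusted p = 0.00267), and rose to day 45 by 1.82 (SE 0.24, edgeR adjusted p = 1.3e-06). Without the first day 31 library the fall was -0.74 (edgeR adjusted p = 0.131). From 3.98 ± 1.51 CPM at day 16 it came to 117 ± 47.4 CPM at day 45, a 29.5-fold ratio of the means (4.87, SE 0.30, edgeR adjusted p = 5.09e-15).

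IGFBP1, best known as a liver protein that insulin represses, lies 18584 bases from IGFBP3 and tail to tail with it, on the plus strand at chr7:45888360-45893660. It had 0 and 0 counts at day 16, 23 and 12 (day 23), 70 and 104 (day 31), 9 and 0 (day 38), and 44 and 8 (day 45). The day 31 libraries were above all others, and the day 45 pair, at 6.39 and 0.874 CPM, spread across the values of days 23 and 38. Set against the floor of 3 counts per library, the day 23 mean was at least 5.15-fold higher than day 16 and the day 45 mean at least 9.54-fold higher, with edgeR adjusted p of 0.0108 and 0.00115. Without the first day 45 library the second bound was at least 2.30-fold, and without the other at least 16.8-fold. The first of these was lost without either day 16 library (adjusted p = 0.0631 and 0.0749) or the first day 23 library (0.0527). IGFBP1 fell from 9.63 ± 3.49 CPM at day 31 to 0.486 ± 0.687 CPM at day 38 (-4.25, SE 1.14, edgeR adjusted p = 0.00827), which was lost without the second library of day 31 (0.101) or of day 38 (0.142). Days 45 and 38 overlapped, at 2.83 (SE 1.11, edgeR adjusted p = 0.106), a step that was called without the first day 38 library (0.0291), which leaves that day at 0, or without the second day 45 library (3.65, edgeR adjusted p = 0.0423).

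IGFBP6, which prefers IGF2 over IGF1, lies on the plus strand at chr12:53097436-53102345. It had 0 and 8 counts at day 16, 13 and 0 (day 23), 20 and 19 (day 31), 22 and 12 (day 38), and 52 and 44 (day 45). Only the day 45 libraries passed 22 counts. The single call was day 45 against day 16, at 3.60 (SE 1.33, edgeR adjusted p = 0.0446). It was lost without the TMM factors (0.0505) and on leaving out any 1 of 7 libraries (adjusted p from 0.0528 to 0.244).

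**Figure D2:**
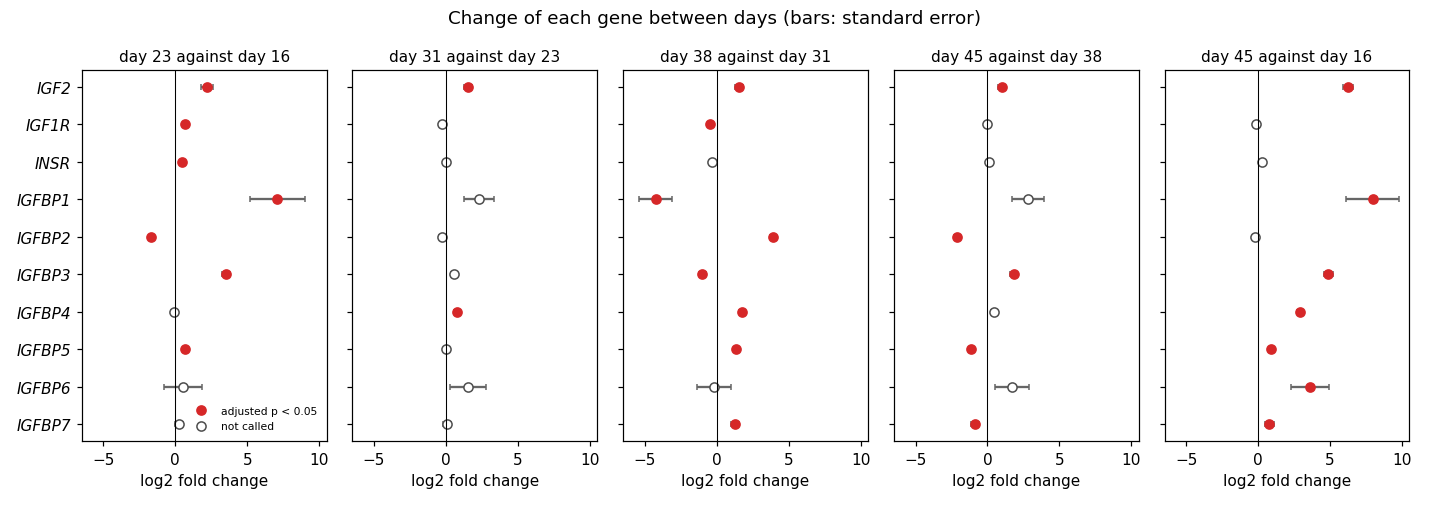
Log2 fold change of the 10 genes (horizontal axis) in each comparison between days, with bars of 1 SE. Red filled points passed an edgeR adjusted p of 0.05 and open points did not. The bars of IGFBP1 and IGFBP6, whose counts are lowest, are the widest, and the IGFBP1 values against day 16, where both libraries are at 0, depend on the prior count of the fit and are no measured fold.

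The binding proteins that rose at day 38 and have a promoter in the RefSeq table are IGFBP2, IGFBP4 and IGFBP5, and their promoters are shown because the 3 genes rose together. Each is the 250 bases before the start site (GRCh38.p14), 5′ to 3′ on the strand of the gene, in lower case with matches to the searched motifs in capitals. They are chr2:216633170-216633419 (plus strand; the entry nearest the main transcript of 3 in the table), chr17:40443200-40443449 (plus) and chr2:216695550-216695799 (minus).
IGFBP2: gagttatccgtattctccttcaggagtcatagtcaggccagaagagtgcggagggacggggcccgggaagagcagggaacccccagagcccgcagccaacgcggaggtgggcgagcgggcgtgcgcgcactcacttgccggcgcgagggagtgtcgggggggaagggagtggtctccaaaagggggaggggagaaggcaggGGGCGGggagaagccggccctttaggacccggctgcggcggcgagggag
IGFBP4: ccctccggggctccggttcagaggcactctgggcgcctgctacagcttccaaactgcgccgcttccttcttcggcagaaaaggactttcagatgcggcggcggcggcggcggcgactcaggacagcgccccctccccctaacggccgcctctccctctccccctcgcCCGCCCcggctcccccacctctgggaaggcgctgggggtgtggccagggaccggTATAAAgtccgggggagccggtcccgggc
IGFBP5: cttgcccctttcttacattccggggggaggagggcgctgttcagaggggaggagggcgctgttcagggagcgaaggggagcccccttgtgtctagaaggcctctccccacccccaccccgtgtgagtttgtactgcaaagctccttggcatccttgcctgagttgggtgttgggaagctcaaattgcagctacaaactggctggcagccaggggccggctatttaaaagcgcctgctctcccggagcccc
The cAMP response element TGACGTCA and its first part TGACG, which lies within it, the palindromic glucocorticoid response element, the forkhead motif TGTTTAC and the SMAD motif GTCTAGAC were searched on both strands, and none was in these 3 windows. They were held by 1.65%, 21.2%, 0.00285%, 2.98% and 0.182% of all 35116 promoters of that length. The GC box GGGCGG (42.6% of promoters) and TATAAA (10.7%) were added after the values were seen. GGGCGG began 49 bases before the start of IGFBP2 and 83 before that of IGFBP4, where it was on the other strand and so is printed as its reverse complement. TATAAA began 29 bases before the start of IGFBP4, and IGFBP5 held none of the 7 motifs. In all, 7 of the 10 genes had a promoter in the table. The GC content of the windows was 69.2% for IGFBP2, 71.6% for IGFBP4 and 61.2% for IGFBP5, where the median of all promoters was 58%. Of the other 4 promoters, TGTTTAC was in that of IGFBP6, on the other strand, and the other 4 planned motifs were in none. A match is a match of letters and no evidence of binding.

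Levels of different genes were compared as CPM per kilobase of merged exons. At day 16 the order was IGFBP5 (32.5 ± 3.90 CPM per kilobase), IGF1R (27.4 ± 0.188), IGFBP2 (22.3 ± 3.03) and INSR (12.2 ± 0.317), and none of these neighbours overlapped, though with the longest transcript as the length IGFBP5 and IGF1R did. IGF2 was the ninth, at 0.183 ± 0.0580. IGFBP5 was the highest at every day, at 133 ± 5.59 CPM per kilobase at day 38, when IGFBP2 (84.6 ± 8.17) and IGFBP4 (44.1 ± 5.64) followed it. At day 45, IGFBP5 (61.2 ± 1.95) and IGFBP4 (60.8 ± 2.05) overlapped. IGF2 reached 13.8 ± 2.03 CPM per kilobase at day 45, overlapping INSR at 14.5 ± 0.752 and below IGF1R at 25.1 ± 0.581. The length of IGF2 includes the bases it shares with other genes, where reads may not have been counted. Its level per kilobase may therefore be too low, and its place in the order is uncertain. With the longest transcript as the length, 10, 8, 4, 10 and 8 of the 10 genes kept their place in the order at the successive days.

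Summed over the 7 genes, the IGFBP level was 73.1 ± 5.26 CPM per kilobase at day 16, 89.1 ± 3.57 (day 23), 105 ± 5.78 (day 31), 299 ± 16.6 (day 38) and 189 ± 21.9 (day 45). The day 38 sum was the highest and its libraries did not overlap those of other days. IGFBP5 made up 44.4% ± 2.14 of the sum at day 16, 58.5% ± 2.39 at day 23 and 32.5% ± 2.73 at day 45. IGFBP4 went from 11.3% ± 0.687 at day 16 to 32.3% ± 2.66 at day 45. The share of IGFBP2 was 30.5% ± 1.96, 7.82% ± 1.82, 5.46% ± 1.13, 28.3% ± 1.17 and 10.2% ± 0.473 at the successive days. IGFBP3 ran the other way, at 1.21% ± 0.539, 11.3% ± 1.42, 13.8% ± 2.61, 2.44% ± 0.322 and 13.4% ± 3.94. These shares depend on the length used, and with the longest transcript IGFBP3 came to 1.92% ± 0.839, 17.0% ± 1.93, 20.6% ± 3.34, 3.88% ± 0.489 and 20.1% ± 5.47, with the same order of days. Between day 38 and day 45 the share of IGFBP2 was the lower at day 45 and those of IGFBP3 and IGFBP4 the higher.

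**Figure D3:**
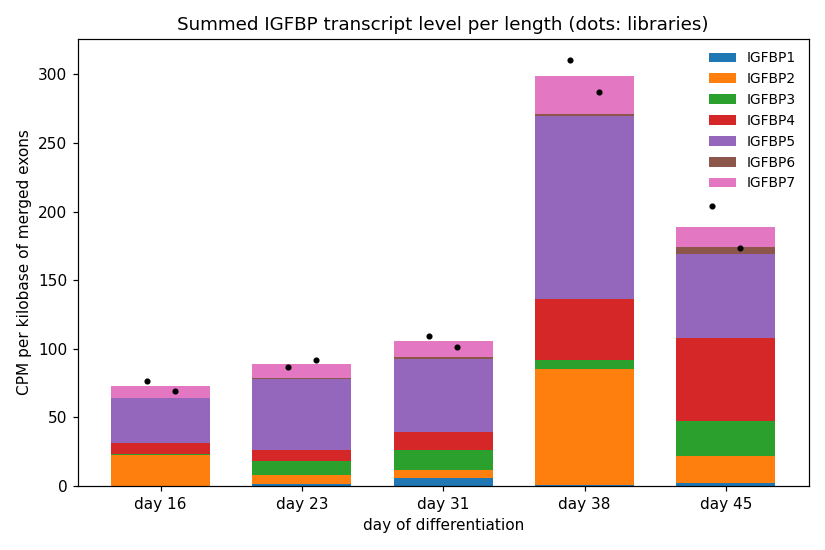
Summed level of the 7 IGFBP genes in CPM per kilobase of merged exons (vertical axis, starting at 0) at each day, with the mean share of each gene as a colour and the sum in each of the 2 libraries as a dot. The bar is tallest at day 38, at 299 CPM per kilobase, and the IGFBP4 part is largest at day 45.

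The rest of the pathway was read from 7 lists of 47 genes outside the 10, of which 45 were tested and 25 were called in at least 1 step between neighbouring days, as were 27.4% of all genes tested. From day 16 to day 23, 7 of the 45 rose and 5 fell, beside 5.60% and 5.33% of all genes tested. The step to day 31 had 2 higher and 1 lower (1.58% and 0.666% of all genes), that to day 38 had 8 and 8 (8.80% and 6.23%), and that to day 45 had 3 and 7 (4.85% and 6.35%). From day 16 to day 45, 12 rose and 8 fell (12.9% and 11.7%). The median log2 fold change of the 45 genes was 0.05, 0.02, 0.02 and -0.16 over the steps, and 0.25 from day 16 to day 45.

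Among 7 genes for IGFBP proteases, their inhibitors and carriers, 3 rose from day 16 to day 45, where 12.9% of all genes did, and the other 4 did not pass in either direction. HTRA1, a secreted serine protease that cleaves IGFBP5, had 72 and 49 counts at day 16, 43 and 21 (day 23), 43 and 49 (day 31), 521 and 433 (day 38), and 369 and 382 (day 45). Its libraries of days 38 and 45 stood above all earlier ones. HTRA1 rose to day 38 by 3.40 (SE 0.34, edgeR adjusted p = 1.94e-09), and its fall to day 23 of 1.07 on the log2 scale was close to the threshold (SE 0.36, edgeR adjusted p = 0.0498) and was lost with DESeq2 (0.0508), without the TMM factors (0.0643), without RN7SK (0.0531), with only the 4 libraries compared (0.335) and on leaving out any 1 of 8 libraries. It was -0.73 without the first day 16 library (edgeR adjusted p = 0.324), -0.67 without the second day 23 library (0.413) and -1.65 without the first (0.0227). STC2, a secreted inhibitor of PAPPA, fell to day 23 by 2.54 (SE 0.26, edgeR adjusted p = 8.19e-09), rose by 1.57 (SE 0.27, 3e-04) and 2.89 (SE 0.24, 2.02e-11) to days 31 and 38, and fell by 0.75 to day 45 (SE 0.22, 0.0202), the last call being lost without either day 38 library (0.165 and 0.191) or the second day 45 library (0.18). The rise to day 31 was lost with only the 4 libraries compared (edgeR adjusted p = 0.112). Its daily means were 26.0, 4.45, 13.2, 98.1 and 58.4 CPM, so that, like IGFBP2, it was low at day 23 and highest at day 38. PAPPA, the protease that acts on IGFBP4, rose to day 23 by 1.78 (SE 0.30, edgeR adjusted p = 4.82e-05), from 9.33 ± 3.52 to 32.2 ± 1.36 CPM, and did not pass in a later step. STC1, the paralogue of STC2, fell to day 45 by 0.72 (SE 0.16, edgeR adjusted p = 0.00194).

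Of 6 IGFBP-related proteins, CCN1 and CCN2, matricellular proteins with an IGFBP-like domain, were called between neighbouring days, and from day 16 to day 45 none of the 6 was called or had an unadjusted p under 0.05 by edgeR or DESeq2. At least 1 step was called for 27.4% of all genes. CCN1 fell to day 23 by 0.64 (SE 0.12, edgeR adjusted p = 0.000281) and to day 31 by 0.45 (SE 0.12, 0.0375), and rose to day 38 by 0.59 (SE 0.12, 0.000559). CCN2 rose to day 38 by 0.84 (SE 0.13, edgeR adjusted p = 1.55e-05) and fell to day 45 by 0.78 (SE 0.13, 6.39e-05). The second CCN1 fall was lost without any library of days 23, 31 and 38 (adjusted p from 0.0525 to 0.464) and without the TMM factors (0.0512), which took the rise to 0.37 (0.0289).

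All 3 IGF2 mRNA-binding proteins, which bind IGF2 and many other transcripts and are typical of fetal cells, were lower at day 45 than at day 16, where 11.7% of all genes were. IGF2BP1 fell by 0.98 on the log2 scale, from 388 ± 24.8 to 197 ± 20.7 CPM (SE 0.13, edgeR adjusted p = 1.33e-07). IGF2BP2 fell by 0.41 (SE 0.13, edgeR adjusted p = 0.016) and IGF2BP3 by 0.71 (SE 0.23, 0.0207), and both calls were lost without the second day 16 library (0.0899 and 0.13) or the first day 45 library (0.232 and 0.181). The IGF2BP2 call was also lost with only the 4 libraries compared (-0.42, edgeR adjusted p = 0.0745). IGF2BP3 shares 1521 exon bases with the opposite-strand gene MALSU1 (36 to 250 counts) and is uncertain.

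Among 7 receptor adaptors, 2 rose and 3 fell from day 16 to day 45, where 12.9% and 11.7% of all genes did. GRB14, an adaptor that inhibits the insulin receptor, fell in 3 of the 4 steps and showed the largest change of the adaptors, by 4.39 on the log2 scale (SE 0.26, edgeR adjusted p = 1.67e-15). Its libraries held 951 and 1123 counts at day 16, 488 and 542 (day 23), 427 and 431 (day 31), 177 and 135 (day 38), and 55 and 42 (day 45), each day below the one before in CPM. IRS1 and IRS2, the docking proteins of both receptors, rose at different steps. IRS1 rose to day 38 by 1.04 (SE 0.14, edgeR adjusted p = 6.94e-07) and IRS2 to day 45 by 1.23 (SE 0.16, edgeR adjusted p = 8.78e-07). GAB1 fell to day 38 by 0.56 (SE 0.16, edgeR adjusted p = 0.0114) and to day 45 by 0.49 (SE 0.16, 0.0388), where the first call was lost without any library of days 31 and 38 (adjusted p from 0.063 to 0.128) and the second without any 1 of 6 libraries (from 0.0527 to 0.384), without the TMM factors (0.0717), with upper-quartile factors (0.0743) and with only the 4 libraries compared (0.06).

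In the PI3K-AKT branch, 6 of 16 genes rose and 2 fell from day 16 to day 45, beside the same 12.9% and 11.7%. AKT2, the AKT kinase tied most to insulin action, had a daily mean of 77.9 ± 25.9 CPM at day 16, 189 ± 7.64 (day 38) and 462 ± 71.1 (day 45). It rose to day 38 by 1.00 (SE 0.16, edgeR adjusted p = 2.29e-05) and to day 45 by 1.29 (SE 0.16, edgeR adjusted p = 4.36e-07). AKT1 rose to day 38 by 0.58 (SE 0.16, edgeR adjusted p = 0.00888), but not without the TMM factors (0.12), the second day 31 library (0.141) or the first day 38 library (0.14). PDPK1, the kinase that activates AKT, rose to day 23 by 0.96 (SE 0.17, edgeR adjusted p = 0.000131) and to day 45 by 1.00 (SE 0.17, 5.01e-05). PIK3R1 rose to day 38 by 0.67 (SE 0.18, edgeR adjusted p = 0.00709), but not without the TMM factors (0.0814) or the second library of day 31 (0.0666) or day 38 (0.0989), and PIK3CB fell by 0.78 (SE 0.15, 0.000333). FOXO1, FOXO3 and MTOR rose to day 23 by 0.60, 0.74 and 0.59 (edgeR adjusted p = 0.0226, 0.000453 and 0.0226), and FOXO1 fell again to day 38 by 0.52 (0.0411), a call lost without any of 6 libraries. The rises of FOXO1 and MTOR were lost without the second day 16 library (0.116 and 0.0768) or the first day 23 library (0.187 and 0.225), and that of FOXO1 also without the second day 23 library (0.0598) and with only the 4 libraries compared (0.0643). Exons of PDPK1 (1838 and 748 bases), FOXO1 (1352), AKT1 (663) and MTOR (220 and 151) are shared with other genes, so that their counts are uncertain to that extent.

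**Figure D4:**
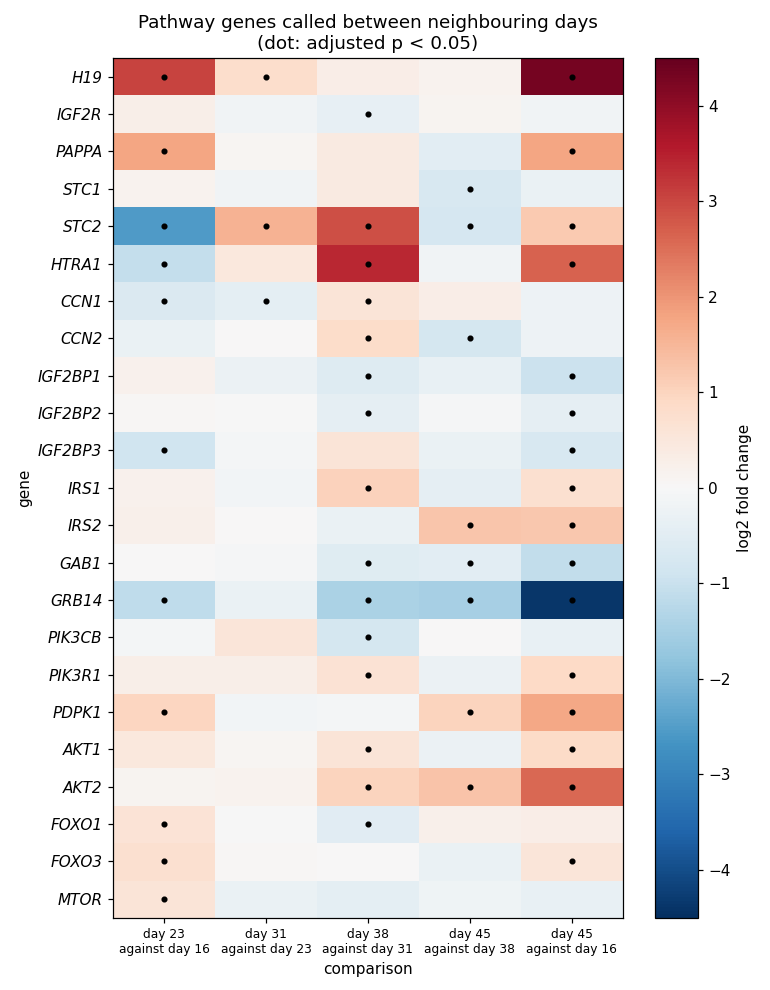
Log2 fold change (colour) of 23 of the 25 pathway genes called in at least 1 step between neighbouring days (rows), for the 4 steps and for day 45 against day 16 (columns). A dot marks an edgeR adjusted p under 0.05. GRB14 is blue with a dot in 3 of the 4 steps, and HTRA1 and STC2 are the darkest reds at day 38.

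Markers of other cell types that a sort could hold moved over the same days. The 5 fibroblast markers summed to between 308 and 439 CPM in the libraries of days 16, 23 and 31 and to 1278, 1281, 1349 and 1138 CPM in those of days 38 and 45, with COL1A2 the most abundant in all 10. From day 31 to day 38, 2 of the 5 rose (COL1A2 by 2.67 and PDGFRA by 1.04) and 1 fell (LUM by 1.23), DCN and PRRX1 being the other two. The higher sum at day 38 lies in COL1A2, which went from 154 and 210 CPM at day 31 to 1151 and 1163 CPM at day 38, the step at which IGFBP2, IGFBP4, IGFBP5, IGFBP7, HTRA1 and STC2 rose. Without COL1A2 the other 4 markers summed to 154 and 173 CPM at day 31, 128 and 118 CPM at day 38, and 288 and 255 CPM at day 45. The 5 cardiovascular markers summed to 9.76 to 26.0 CPM up to day 31 and to 129, 129, 106 and 124 CPM afterwards. MYH6 was the most abundant, the other 4 summed to at most 6.24 CPM up to day 31 and at least 25.6 CPM later, and the endothelial marker PECAM1 was at 0 up to day 31 and at most 14 counts later.

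The 4 liver markers summed to 7.61 and 11.7 CPM at day 16, 29.9 and 30.0 (day 23), 158 and 135 (day 31), 107 and 64.6 (day 38), and 219 and 208 (day 45), and 3 of 4 rose from day 23 to day 31. IGFBP1 had its highest level at day 31, as did TTR and APOA1 but not ALB and AFP, which were highest at day 45. TTR and APOA1 also fell to day 38 (by 3.73 and 2.55 on the log2 scale), while ALB and AFP did not pass. Of the 2 lung markers SFTPC had at most 1 count, while SFTPB stood at 499 and 502 CPM at day 31 and at 6.59 and 8.62 CPM at day 38, the same 2 days between which IGFBP1 and IGFBP3 fell. The 3 goblet markers reached 49.9 and 36.4 CPM at day 38, with MUC5AC the most abundant, and 102 and 56.2 CPM at day 45, with MUC5B the most abundant. The 2 airway markers reached 44.3 and 38.7 CPM at day 45. The 2 epithelial markers stayed between 788 and 1089 CPM in all 10 libraries. The part of any of these cells in the IGF system values was not tested.

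**Figure D5:**
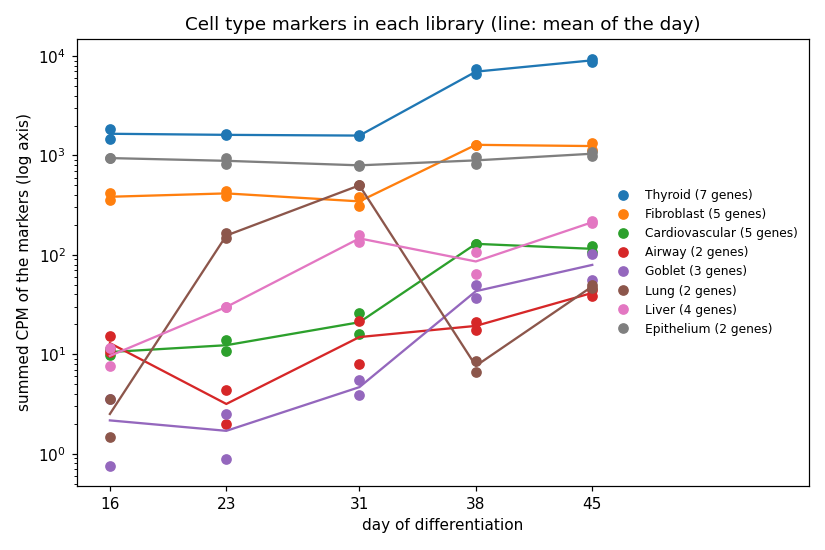
Summed CPM of the marker genes of 8 cell types (vertical axis, log scale) against day, with a dot for each library and a line through the daily means. The fibroblast and cardiovascular sums are higher at days 38 and 45 than before, the fibroblast sum at day 38 through COL1A2 alone, and the lung sum, which is SFTPB alone for nearly all its counts, peaks at day 31.

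The genes whose level over the 10 libraries was most like each of the 10 were found by Pearson's r of log2 CPM among 13107 genes. All points share their libraries and their depth, and with 5 days many genes have like patterns, so the r values are descriptive. For IGF2 they were ATOH8 (r = 0.99), CP, the plasma copper carrier ceruloplasmin (0.99), and SH3RF1 (0.99). ATOH8 went from 5.74 CPM at day 16 to 43.9 CPM at day 45, and CP from 1.43 to 78.0 CPM. For IGFBP2 they were OBSL1 (0.98), the receptor tyrosine kinase KIT (0.97) and the calcium channel ITPR1 (0.96), all with their highest daily mean at day 38. For IGFBP5 they were SEMA4B (0.97), the mucin MUC5AC (0.97) and the collagen COL11A1 (0.95), which had 199 CPM at day 38 and 58.5 CPM at day 45. For IGFBP4 they were GJB6 (0.99), TARS1 (0.99) and the chemokine CCL20 (0.99), which went from 0 CPM at days 16 and 23 to 83.3 CPM at day 45.

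For IGFBP3 the nearest were ANXA5 (0.98), TSC22D4 (0.97) and the cytokine receptor IL6ST (0.97), for IGFBP7 CASC4 (0.96), TNPO1 (0.95) and SSR4 (0.95), and for IGFBP6 the airway secretory gene SCGB3A2 (0.98), RNF128 (0.96) and HCFC1R1 (0.94). For IGFBP1 they were AKR1C2 (0.96), which peaked at 36.1 CPM at day 31, CLDN4 (0.94) and CRYZL2P (0.93). The receptors were nearest to PCLO (0.98), MBNL3 (0.98) and ANKRD40 (0.97) for IGF1R and to MYL9 (0.97), TEX261 (0.95) and MED16 (0.94) for INSR. Within the 10, the highest r values were between IGFBP5 and IGFBP7 (0.91), IGF2 and IGFBP4 (0.90), and INSR and IGFBP1 (0.88), and the lowest was between IGF1R and IGFBP2 (-0.79). The neighbours IGFBP2 and IGFBP5 had an r of 0.62, and IGFBP1 and IGFBP3 one of 0.76.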

How the data were processed

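Bulk RNA-seq was made from NKX2-1GFP+ cells in 10 libraries, 2 for each of 5 days, grouped by their labels. Per the labels and the study's methods, the authors trimmed reads with Trimmomatic, aligned to GRCh38.p13 with HISAT2 and used HTSeq to obtain the deposited raw counts of 28265 symbols; versions, strand and overlap settings are not given in the sources used here. Each file also holds 28265 blank lines, which were dropped.

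The 10 genes and all lists of pathway genes, markers and motifs were chosen with earlier results of these data known. The 21014 genes that reached 5 counts in 2 or more libraries entered edgeR 4.0.16 (quasi-likelihood, TMM factors, limma 3.58.1, R 4.3.3), with 1 mean per day over all 10 libraries, and the Benjamini-Hochberg adjustment ran over all of them, with 0.05 as the threshold. SEs are approximate (the log2 fold change over the root of F). The procedure was tried on simulated counts, read only for day 38 against day 31. The simulation gave all genes the same spread between replicates and put changes only into genes above a minimum mean count. It therefore does not cover changes of genes with lower counts. They come from the fit and so include the spread between replicate libraries, while the floor of 3 counts is a fixed setting. Replicate libraries differed by more than sampling noise (chi-square per degree of freedom 8.84 to 14.5), so each counted as 1 replicate; their r was 0.940 to 0.970, and 0.853 to 0.942 between days. The snRNA RN7SK took 2.92 to 8.17% of counts.

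Positions and exon lengths came from GENCODE 44, which matched 25755 symbols (91.1%), and promoters from RefSeq. All 10 genes are named, pathway genes if called in at least 1 step between neighbouring days or needed for their role (2 that were called are not reported here), and the 3 most alike genes among those with a mean of at least 5 CPM (prior count 2). Alternatives were DESeq2 1.42.0, no TMM factors, upper-quartile factors, RN7SK left out, other filters on low counts, a block for the replicate number, fits to only the 4 libraries compared, an added minimum log2 fold change of 1, the longest transcript as length, and leaving out each library.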

Additional observations from a re-analysis of the deposited data

How the results depend on the processing

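Of 400 log2 fold changes of the 10 genes under settings other than leaving out a library, 379 kept their direction and their side of the threshold, 11 lost and 4 gained a call, and 6 changed sign, all 6 near 0. The sign changes were IGF1R from day 38 to day 45 (-0.03), at 0.013 with DESeq2, 0.021 without TMM factors, 0.029 with upper-quartile factors and 0.0061 with a filter of 5 CPM in 1 library, and INSR from day 23 to day 31 (0.00), at -0.0045 without RN7SK and -0.0049 with no filter on low counts. Of 500 values with 1 library left out, 450 were the same in this sense, 38 lost and 2 gained a call, and 10 changed sign, none of them called. The ranges of those that changed sign were -0.081 to 0.090 for INSR, -0.55 to 0.012 for IGFBP2, -0.054 to 0.11 for IGFBP5 and -0.40 to 0.45 for IGFBP7 from day 23 to day 31, and -5.13 to 5.68 to day 23 and -0.60 to 0.16 to day 38 for IGFBP6. With 1 library left, a day is taken to vary like the others.

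With a log2 fold change of at least 1 added, the counts of all genes called over the 4 steps were 1183, 282, 1691 and 1202, and 3252 from day 16 to day 45, and those of the 10 genes were 4 at the first step, 1 at the second and 3 at the fourth. With only the 4 libraries compared, 1731 of all genes were called at the first step and 358 at the second, against 2296 and 473 in the main fit. Of the 10 genes, 4 were called at the first step (IGF2, INSR and IGFBP1 lost their call) and 0 at the second (IGF2 and IGFBP4 lost theirs). At the second step edgeR on those libraries gave an unadjusted p under 0.05 for 4 higher and 1 lower, and DESeq2 on all libraries called 3. Leaving out each library in turn gave 1350 to 2383, 206 to 646, 1764 to 3614 and 1166 to 2816 genes over the 4 steps, 3969 to 5222 from day 16 to day 45 and 6331 to 7763 over any day. For the 10 genes it gave 5 to 7, 0 to 2, 6 to 8 and 3 to 5 over the steps, 5 to 7 from day 16 to day 45 and 9 to 10 over any day. The count of all genes moved by over 1.5 times without either day 23 library at the first step (1461 and 1350), any day 23 or day 31 library at the second (206 to 288), the first day 31 or either day 38 library at the third (1764 to 1973) and either day 38 or the first day 45 library at the fourth (1166 to 1568). The counts of the 10 genes moved by over 1.5 times at the second step without either day 23 or day 31 library, either day 38 library or the first day 45 library, and at the fourth without the second day 38 or the first day 45 library.

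The replicate numbers did not pair the libraries: deviations of same-numbered libraries had an r of -0.03 to 0.02 over 10 pairs of days. With the replicate number as a block, 2703, 678, 3472 and 2691 genes were called over the 4 steps, 5460 from day 16 to day 45 and 8239 over any day, and the counts of the 10 genes were 7, 2, 8, 5, 7 and 9. Of 50 daily mean levels, 35 moved by less than 1 SD of their libraries without TMM factors, 47 with upper-quartile factors and 34 without RN7SK, and 26 of 50 levels per kilobase with the longest transcript as length. Genes under about 20 counts, as IGFBP1 and IGFBP6 at most days, are limited by depth.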

Other observations

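Some pathway genes changed over any day without a call in a single step, and were picked here after their values were seen. PAPPA2, a protease of IGFBP5, had a daily mean of 8.36 CPM at day 16, 18.3 CPM (day 23), 5.15 CPM (day 31), 3.06 CPM (day 38) and 3.62 CPM (day 45) (edgeR adjusted p over any day = 0.00144), so that its highest day was not that of PAPPA, which had 45.0 CPM at day 38. Its 2 day 45 libraries held 7 and 57 counts. GHR, the growth hormone receptor, had 18.4 ± 3.91 CPM at day 38 and 6.43 ± 1.57 CPM at day 23 (edgeR adjusted p = 0.0434). RHEB, the GTPase that activates mTOR, was lowest at day 31, at 43.2 ± 2.45 CPM, and highest at day 45, at 80.2 ± 4.95 CPM (edgeR adjusted p = 0.00238).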
